A study of Mus musculus with 8 samples.

Results

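The genes described here are the mouse mRNAs of 10 glycolytic enzymes, Hk2, Gpi1, Pfkl, Aldoa, Tpi1, Gapdh, Pgk1, Pgam1, Eno1 and Pkm. They were picked by gene symbol, 1 for each step of the pathway, and matched to Ensembl identifiers, which found 10 of the 45706 genes in the count tables, and all 10 passed the filter on low counts. RNA was sequenced from freshly isolated crypts of the small intestine (SI) and of the colon (COL) of 4 wild type C57BL/6N mice. These were 2 females (replicates 1 and 4) and 2 males (replicates 2 and 3), whose age is not given in the sources used here. The study describes crypt isolation for its organoid cultures. There crypts of the proximal small intestine and of the colon were released with EDTA, and villi had been scraped from the small intestine beforehand. The libraries are called SI1 to SI4 and COL1 to COL4 here, and those with the same number came from the same mouse, so each group holds 4 animals. The question was whether Gapdh, a transcript often used as a loading control, moves with the rest of its pathway between the tissues.

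Glycolysis splits glucose into pyruvate. Its preparatory phase, with hexokinase, glucose phosphate isomerase, phosphofructokinase, aldolase and triose phosphate isomerase, spends ATP to make triose phosphates, and its payoff phase, with GAPDH, phosphoglycerate kinase, phosphoglycerate mutase, enolase and pyruvate kinase, yields ATP and NADH. Several steps are shared between isozymes that different tissues prefer, and absorptive cells of the small intestine also carry out reverse, gluconeogenic reactions, in which fructose bisphosphatase bypasses the phosphofructokinase step.

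The tables held 15969428 to 32908060 counted reads per library. Levels are given as CPM, counts divided by library size in units of 1e6 reads and scaled by TMM, a factor that balances composition between libraries, and per kilobase of the principal transcript wherever genes are compared with each other. The share of mitochondrially encoded genes was 22.7 to 50.8% in COL1, COL2, SI2 and SI3 (called high here). It was 4.83 to 7.35% in the remaining 4 libraries (low), and both classes held libraries of each tissue. Within SI the high libraries came from the males and the low ones from the females, so share and sex cannot be told apart there. In COL each class held both sexes. The 10 listed markers of absorptive enterocytes were all higher in SI and summed to 68701 to 161970 CPM there against 271 to 930.2 CPM in COL. Of 8 goblet markers 4 were higher in COL (summed, 2873 to 10953 CPM in SI and 12794 to 24251 CPM in COL), as were 5 of 8 colonocyte markers, with 1 higher in SI. Paneth markers were higher in SI for 6 of 8 and immune markers for 4 of 10 tested (145 to 395 CPM summed in SI, 23.5 to 114 CPM in COL), and 12 proliferation genes summed to 123 to 562 CPM in SI and 429 to 749.7 CPM in COL. Over all genes tested, 15.5% were called higher in SI and 12.9% in COL. Markers of stroma summed to at most 16.7 CPM and those of smooth muscle to at most 13.9 CPM in any library. The part of cell makeup and of the mitochondrial share in the results below was not tested, and in such bulk samples fewer cells of a type and less RNA per cell cannot be told apart.

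Promoters of 4 members are printed because the question is whether these genes move as 1 group. Gapdh is the gene asked about, Tpi1 was higher in SI, Hk2 was higher in COL, and Pgk1 did not pass the test. Each is 300 bases of RefSeq sequence on build GRCm38.p6, 250 before and 50 after an annotated start, written 5′ to 3′ on the gene's strand. Capitals mark ACGTG or its reverse complement CACGT, a form of the core that hypoxia-inducible factor and E-box factors bind. Other forms of that core, such as GCGTG, were not searched for. The windows are chr6:125165724-125166023 (minus strand) for Gapdh, chr6:124814109-124814408 (minus strand) for Tpi1, chr6:82774405-82774704 (minus strand) for Hk2 and chrX:106186850-106187149 (plus strand) for Pgk1.
Gapdh: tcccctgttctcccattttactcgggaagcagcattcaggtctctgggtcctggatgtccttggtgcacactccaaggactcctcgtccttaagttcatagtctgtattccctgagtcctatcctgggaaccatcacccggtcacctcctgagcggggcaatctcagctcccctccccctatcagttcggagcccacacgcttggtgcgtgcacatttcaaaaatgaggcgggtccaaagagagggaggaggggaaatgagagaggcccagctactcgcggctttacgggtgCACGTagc
Tpi1: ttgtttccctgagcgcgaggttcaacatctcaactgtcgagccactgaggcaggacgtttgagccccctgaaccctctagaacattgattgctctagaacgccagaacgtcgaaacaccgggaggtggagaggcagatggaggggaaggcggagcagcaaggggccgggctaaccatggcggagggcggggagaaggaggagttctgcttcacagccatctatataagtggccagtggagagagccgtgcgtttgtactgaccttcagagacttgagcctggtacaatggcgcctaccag
Hk2: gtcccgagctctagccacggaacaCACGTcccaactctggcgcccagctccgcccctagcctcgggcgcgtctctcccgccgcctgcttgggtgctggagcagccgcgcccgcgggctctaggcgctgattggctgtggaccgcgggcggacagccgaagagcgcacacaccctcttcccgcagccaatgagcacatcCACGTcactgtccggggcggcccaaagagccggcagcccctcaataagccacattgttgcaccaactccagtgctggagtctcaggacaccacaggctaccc
Pgk1: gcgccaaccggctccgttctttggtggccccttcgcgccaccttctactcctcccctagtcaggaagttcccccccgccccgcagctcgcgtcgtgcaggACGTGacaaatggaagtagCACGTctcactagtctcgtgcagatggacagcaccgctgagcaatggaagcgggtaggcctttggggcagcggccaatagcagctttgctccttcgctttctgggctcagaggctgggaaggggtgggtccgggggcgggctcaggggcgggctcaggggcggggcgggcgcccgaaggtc
On either strand ACGTG occurred in at least 1 window of 6 of the 10 members (7 of their 15 windows), among them Hk2 (2 copies), Pgk1 (2) and Gapdh (1). It was found in 19.6% of the 32851 RefSeq mouse windows of the same length. Some windows of Aldoa overlap each other, as do some of Eno1, so the same site can count in more than 1 window. The GC box GGGCGG was found in 11 of the 15 member windows, that of Gapdh not among them, against 35.7% of all windows. The exact sequence TATAAA, a form of the TATA box, was found in no member window against 13.6% of all. Other forms were not searched for, and the Tpi1 window holds the related tatataag. Of the members higher in COL, Hk2 and Aldoa had ACGTG and Pfkl did not. This says nothing of other forms of the core. ACGTG was found for neither Tpi1 nor Eno1, the members higher in SI. It was also found for Gapdh, Pgk1, Pgam1 and Pkm, which leaned toward SI without passing the test. It was not found for Gpi1, which leaned the same way and did not pass either.

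Of the 10 enzymes 5 passed the quasi-likelihood test of edgeR, with p-values adjusted by Benjamini-Hochberg over 14491 genes, of which 28.4% did. Tpi1 and Eno1 were higher in SI, where 15.5% of all genes were called, and Hk2, Pfkl and Aldoa were higher in COL, where 12.9% were. Enzymes of the preparatory phase went both ways, Hk2, Pfkl and Aldoa being higher in COL and Tpi1 higher in SI, while Gpi1 did not pass. The 5 enzymes of the payoff phase had log2 fold changes above 0, of which Eno1 alone passed the test, and Pgk1 turned to −0.11 when scaled by library size alone. The median log2 fold change of SI against COL was 0.81 over the 10 and −0.09 over all genes. Ranges of the SI and COL libraries did not overlap for 7 of the 10, against 33.5% of all genes.

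**Figure D1:**
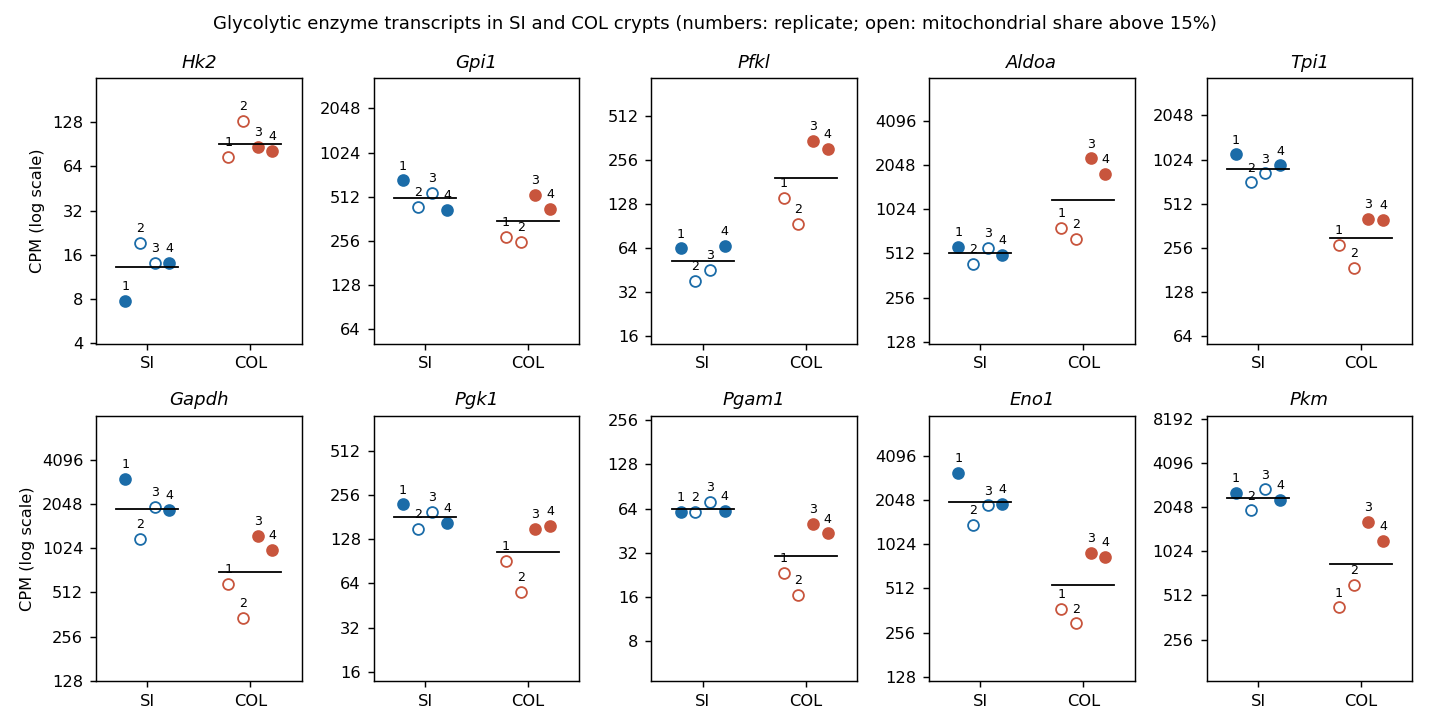
CPM of each enzyme on a log2 axis, 4 SI (blue) and 4 COL (red) libraries with their replicate number, open where the mitochondrial share of counts is above 15%, and a line at the geometric mean. Hk2, Pfkl and Aldoa lie higher in all COL libraries, Tpi1, Pgam1, Eno1 and Pkm higher in all SI libraries, and Gpi1, Gapdh and Pgk1 overlap.

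Hk2 (ENSMUSG00000000628, chr6:82725025-82774454, minus strand) encodes hexokinase 2, which traps glucose in the cell by phosphorylation. Its level was 7.75, 19.3, 14.0 and 14.1 CPM in SI1 to SI4 and 74.3, 130.3, 87.1 and 81.2 CPM in COL1 to COL4. Every COL library stood far above every SI library, with COL2 the highest and SI1 the lowest. COL averaged 93.2 ± 25.2 CPM and SI 13.8 ± 4.74 CPM (SD, n = 4 each), a log2 fold change of −2.76 ± 0.33 (SE, adjusted p = 0.000122 by edgeR).

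Gpi1 (ENSMUSG00000036427, chr7:34201330-34230336, minus strand) encodes glucose phosphate isomerase, which turns glucose 6-phosphate into fructose 6-phosphate. Its counts gave 661, 436, 543 and 415 CPM in SI and 272, 253, 529.7 and 421 CPM in COL. The groups overlapped, since COL3 and COL4 lay within the SI range. At 0.48 (95% CI −0.31 to 1.27) its log2 fold change did not pass (adjusted p = 0.355 by edgeR).

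Pfkl (ENSMUSG00000020277, chr10:77986947-78010083, minus strand) encodes the liver-type subunit of phosphofructokinase, the committed step. It was found at 63.8, 38.2, 45.6 and 66.6 CPM in SI and at 141, 93.0, 344 and 305 CPM in COL. All COL libraries exceeded all SI libraries, and COL3 and COL4 exceeded COL1 and COL2. This came to a log2 fold change of −2.04 ± 0.44 (adjusted p = 0.00464 by edgeR).

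Aldoa (ENSMUSG00000030695, chr7:126795234-126800751, minus strand) encodes aldolase A, which cleaves fructose 1,6-bisphosphate. It was at 569.6, 437, 562 and 498 CPM in SI and at 764, 640.3, 2274 and 1791 CPM in COL. The groups did not overlap, but COL1 and COL2 were close to the SI range. On the log2 scale SI was at −1.40 ± 0.47 against COL (adjusted p = 0.0452 by edgeR). This call was lost with a replicate block for the mouse (adjusted p = 0.104 by edgeR) and with 6 of the 8 libraries left out singly. The difference was −0.50 among the 4 libraries of high mitochondrial share (SI2 and SI3 against COL1 and COL2). Among those of low share (SI1 and SI4 against COL3 and COL4) it was −1.92. The mice of these comparisons are only partly matched.

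Tpi1 (ENSMUSG00000023456, chr6:124810586-124814296, minus strand) encodes triose phosphate isomerase, which interconverts the trioses made by aldolase. It was at 1111, 717, 825 and 935 CPM in SI and at 267, 189, 402 and 398 CPM in COL. The lowest SI library stood above the highest COL library by a wide margin. SI was higher in 4 of 4 mice, by 1.52 ± 0.37 on the log2 scale (adjusted p = 0.0106 by edgeR).

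Gapdh (ENSMUSG00000057666, chr6:125161715-125166467, minus strand) encodes the dehydrogenase that makes NADH and 1,3-bisphosphoglycerate. Its level was 3041, 1192, 1963 and 1863 CPM in SI1 to SI4 and 583, 343, 1241 and 998 CPM in COL1 to COL4. The groups overlapped by a single pair, COL3 lying just above SI2, and within every mouse SI was higher. COL averaged 791 ± 404 CPM and SI 2015 ± 765 CPM (SD, n = 4 each).

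The log2 fold change of Gapdh was 1.35 ± 0.51 (95% CI 0.24 to 2.46) and did not pass (adjusted p = 0.0687 by edgeR). By mouse the log2 difference was 2.38, 1.80, 0.66 and 0.90 in mice 1 to 4, a difference that varied in size between animals and pointed to SI in each. It was 1.77 among libraries of high mitochondrial share (SI2 and SI3 against COL1 and COL2). Among those of low share (SI1 and SI4 against COL3 and COL4) it was 1.10, and the mice are only partly matched in both. A two-sided exact permutation test of the 8 libraries gave p = 0.0571, where 0.0286 is the smallest p that 4 against 4 allows, and sign flips within the 4 mice gave an exact p of 0.125, the smallest they allow. The call depended on the tool, since limma-voom (adjusted p = 0.0327), DESeq2 (0.0102) and an edgeR fit with a term for the mitochondrial share (0.00699, chosen after earlier results were known) called Gapdh higher in SI at log2 fold changes of 1.50, 1.34 and 1.45.

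Pgk1 (ENSMUSG00000062070, chrX:106187100-106203699, plus strand) encodes phosphoglycerate kinase 1, the first ATP-forming step. It was at 221, 151, 198 and 165 CPM in SI and at 90.8, 55.7, 149.9 and 158 CPM in COL. The overlap was again of a single pair, COL4 with SI2. Its log2 fold change was 0.69 (95% CI −0.09 to 1.47) and did not pass (adjusted p = 0.173 by edgeR).

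Pgam1 (ENSMUSG00000011752, chr19:41911923-41918660, plus strand) encodes phosphoglycerate mutase 1, which moves the phosphate of 3-phosphoglycerate. It was at 60.9, 61.1, 71.2 and 62.1 CPM in SI and at 23.4, 16.5, 50.1 and 43.3 CPM in COL. The groups were apart and the SI libraries lay close together. Nevertheless 0.94 ± 0.34 in log2 missed the threshold (adjusted p = 0.0615 by edgeR), and it passed with a replicate block for the mouse (1.07, adjusted p = 0.0345 by edgeR).

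Eno1 (ENSMUSG00000063524, chr4:150236721-150248879, plus strand) encodes enolase 1, which forms phosphoenolpyruvate. It was at 3117, 1394, 1883 and 1942 CPM in SI and at 374, 296, 899 and 836 CPM in COL. The groups were apart in all libraries, with SI1 the highest and COL2 the lowest, as for Gapdh. Eno1 was higher in SI by 1.79 ± 0.50 in log2 (adjusted p = 0.0197 by edgeR). It missed the threshold without SI1 (adjusted p = 0.0556 by edgeR) and without COL1 (0.0605).

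Pkm (ENSMUSG00000032294, chr9:59656368-59679375, plus strand) encodes the muscle-type pyruvate kinases M1 and M2, which gene counts do not separate. It was at 2569, 1941, 2699.8 and 2298 CPM in SI and at 424, 602, 1619 and 1195 CPM in COL. All SI libraries exceeded all COL libraries. Its log2 fold change of 1.31 ± 0.50 missed the threshold (adjusted p = 0.0707 by edgeR), while limma-voom (0.0238) and DESeq2 (0.00794) passed it.

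The number of members called differed by tool and scaling, as did that of all genes. Over all genes the main edgeR fit called 4116, DESeq2 5121 and limma-voom 4691. With a term for the mitochondrial share edgeR called 5400 genes, and with plain library size 5903. DESeq2 called 8 of the 10 and limma-voom 7, each with 5 higher in SI, and edgeR with a term for the mitochondrial share called 9, of which 6 were higher in SI. With plain library size in place of TMM, which moved the median gene to −0.82, edgeR called Hk2, Pfkl and Aldoa alone, and Gapdh was at 0.54, or 1.37 above the median gene.

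Within a library the ratio of a gene to Gapdh does not depend on scaling between libraries, so the question was put directly by fitting edgeR with each library's Gapdh count as its size. Of the 9 other enzymes 4 differed from Gapdh in their change between tissues, all toward COL, where 45.6% of 14490 genes differed from Gapdh and 41.4% did so toward COL. The count of 4 of 9 was close to the share over all genes. The median gene stood at −1.59 in log2 relative to Gapdh. The 4 were Hk2, Pfkl and Aldoa, each further from Gapdh than the median gene, and Gpi1, which was nearer to it. For Tpi1, Pgk1, Pgam1, Eno1 and Pkm no difference from Gapdh was shown.

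Pfkl had 2.10, 3.20, 2.32 and 3.58 counts per 100 counts of Gapdh in SI and 24.1, 27.1, 27.7 and 30.6 in COL. The ratio was thus steady within COL, although Pfkl itself varied widely there, and its change relative to Gapdh was −3.29 ± 0.36 in log2 (adjusted p = 0.000138 by edgeR). Aldoa had 18.7, 36.7, 28.6 and 26.8 counts per 100 of Gapdh in SI and 131, 187, 183 and 179.5 in COL, a relative change of −2.62 ± 0.36 (adjusted p = 0.000484 by edgeR). Aldoa was therefore below Gapdh in every SI library and above it in every COL library in counts.

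Hk2 had 0.255 to 1.62 counts per 100 of Gapdh in SI and 7.01 to 38.0 in COL, a relative change of −4.30 ± 0.73 (adjusted p = 0.00181 by edgeR). Gpi1 had 21.7 to 36.6 in SI and 42.2 to 73.8 in COL, with no overlap, and its relative change of −0.92 ± 0.35 was just past the threshold (adjusted p = 0.0495 by edgeR). The call on Gpi1 was lost without any 1 library other than SI2, at adjusted p of 0.0511 to 0.140 by edgeR.

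For these 5 the log2 change relative to Gapdh was 0.13 (95% CI −0.60 to 0.85) for Tpi1, 0.03 (−0.80 to 0.85) for Pkm and −0.29 (−1.12 to 0.55) for Pgam1. All 3 intervals include 0. It was −0.62 (−1.34 to 0.10) for Pgk1 and 0.45 (−0.22 to 1.12) for Eno1. Eno1 had 103, 117, 95.9 and 104 counts per 100 of Gapdh in SI and 64.1, 86.3, 72.4 and 83.8 in COL, so that its ratios did not overlap although the fit over all genes did not call it (adjusted p = 0.210 by edgeR). Tpi1 had 36.5, 60.2, 42.0 and 50.2 per 100 in SI and 45.8, 55.0, 32.4 and 39.9 in COL, which overlapped throughout.

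**Figure D2:**
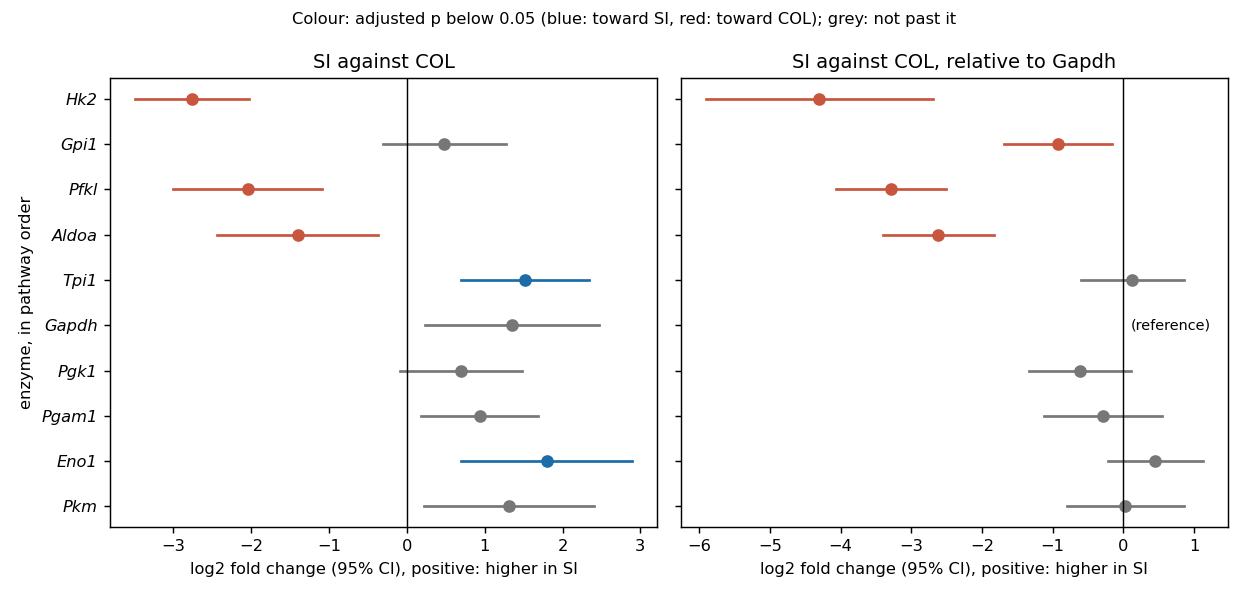
Log2 fold change of SI against COL with its 95% CI for each enzyme in pathway order, on the left by TMM scaling and on the right relative to Gapdh (positive: higher in SI). Blue and red mark an adjusted p below 0.05 toward SI and COL, and grey the rest. On the right Hk2, Gpi1, Pfkl and Aldoa lie below 0, at −4.30, −0.92, −3.29 and −2.62, and the intervals of the other 5 enzymes include 0.

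Libraries of 1 tissue also differed together. Gapdh deviated from its tissue mean of log2 CPM by 0.67 in SI1, −0.68 in SI2, 0.04 in SI3 and −0.03 in SI4, and by −0.28, −1.04, 0.82 and 0.50 in COL1 to COL4. In COL at least 8 of the 9 other enzymes had the sign of Gapdh in every library, against 52.3 to 55.2% of all 14490 other genes tested, with COL1 and COL2, of high mitochondrial share, below the mean and COL3 and COL4, of low share, above it. In SI the sign was shared by 7 enzymes in SI1, 8 in SI2 and 6 each in SI3 and SI4, where Gapdh lay close to its mean, against 45 to 50.9% of all genes. Hk2 had the opposite sign to Gapdh in SI1, SI2, SI4, COL2, COL3 and COL4.

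**Figure D3:**
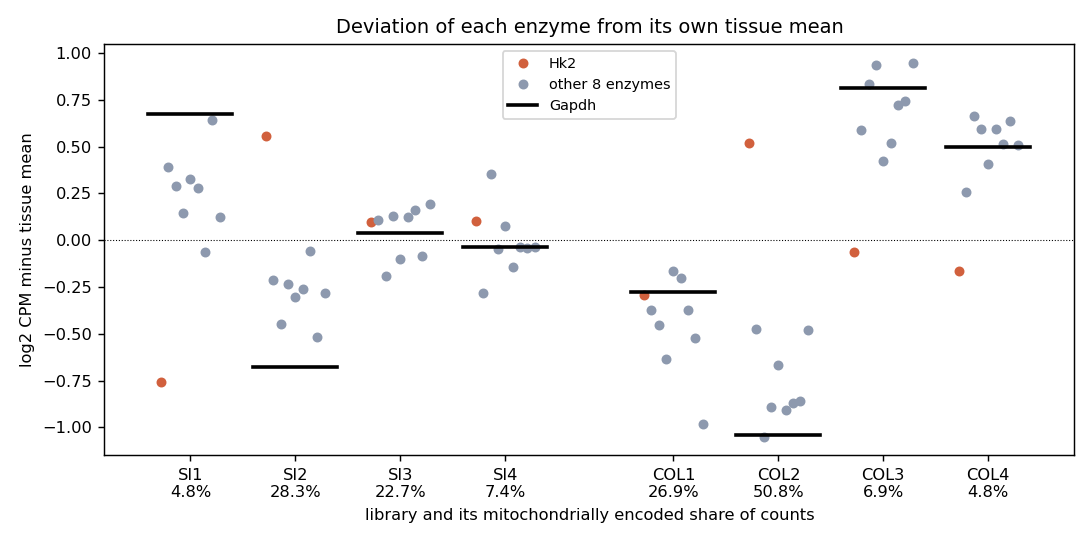
Deviation of log2 CPM from the gene's own tissue mean for each enzyme in each library (Gapdh as bars, Hk2 in orange, the other 8 in grey), with the mitochondrially encoded percent of counts under each library name. COL1 and COL2 lie mostly below 0 and COL3 and COL4 mostly above it, from −1.04 to 0.82 for Gapdh, and Hk2 is above 0 in COL2.

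Likeness to Gapdh was measured as the root mean square difference of log2 CPM profiles over the 8 libraries, each centred on its mean, among 3646 genes of mean log2 CPM of at least 5. This measure includes the difference between tissues and the variation within them, and is a description. The nearest genes were Mrps36 (0.10), Miga2 (0.15), Mtch2 (0.17), Cfl1 (0.17) and Trappc2l (0.18), none of them a glycolytic enzyme. Eno1 came 46th at 0.27 and Tpi1 60th at 0.28, Pgam1, Pgk1 and Pkm lay at ranks 277, 290 and 305, and Gpi1 at 839. Far from it were Aldoa at rank 3051, Pfkl at 3358 and Hk2 at 3541.

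Per kilobase of transcript, Gapdh was the most abundant member in SI, at 839 to 2142 CPM per kilobase, followed by Eno1 (688 to 1538) and Pkm (798 to 1110), whose ranges overlapped with it. Tpi1 (446 to 691) lay below every Pkm value, and further down Aldoa (282 to 368), Gpi1, Pgk1, Pgam1, Pfkl (10.2 to 17.9) and Hk2 (1.41 to 3.51) had separate ranges. In COL Aldoa was first with 413 to 1468 CPM per kilobase, before Gapdh (242 to 874), Pkm (174 to 666) and Eno1 (146 to 443). Neighbours in the COL order overlapped in range except Gpi1 (87.8 to 184) and Pgk1 (30.5 to 86.5). By these means Aldoa stood 5th of the 10 in SI and 1st in COL, where its range overlapped with that of Gapdh. The places of Gapdh, Eno1 and Pgk1 are uncertain because most of their sequence is shared with other genes.

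Much of the sequence of Gapdh and of several other members is shared with other genes. Of the 50-base stretches of the principal Gapdh transcript 82.5% occur also in transcripts of other annotated genes, 222 genes in all, of which 213 are pseudogenes. All 950 stretches of its coding sequence do so. The 1 found in the most other genes, 84, is shown because its 50 bases alone cannot place a read (bases 655 to 704 of the transcript). The reads were paired-end, and a longer read or its mate may reach further sequence.
Gapdh coding stretch: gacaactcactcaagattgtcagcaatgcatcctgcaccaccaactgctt
The shared percent was 72.2 for Eno1, 68.0 for Pgk1, 41.5 for Pgam1, 34.4 for Pkm, 25.3 for Gpi1, 13.5 for Aldoa, 7.51 for Tpi1, 0.054 for Pfkl and 0 for Hk2. Counts assigned to the sharing pseudogenes amounted to 1.50 to 4.46% of the Gapdh count in SI and 2.26 to 11.8% in COL. Adding them left the log2 fold change of Gapdh at 1.32 (adjusted p = 0.0670 by edgeR). Reads with more than a single location are in neither count, so this addition cannot show what they would change. The levels of Gapdh, Eno1 and Pgk1 against other genes are uncertain. Genes on the opposite strand overlap 5 of the members, and with the use of strand not given their reads cannot be told apart, the most counted of these neighbours having 477 counts in a library.

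Other isozymes share a step with these enzymes. Of 15 reported here, 11 were tested, and 4 were higher in SI and 2 in COL, against 15.5% and 12.9% of all genes. Pfkp, the platelet-type phosphofructokinase, was at 791, 540.1, 409 and 738 CPM in SI and at 67.8, 109, 219.5 and 161 CPM in COL (log2 fold change 2.15 ± 0.43, adjusted p = 0.00311 by edgeR), opposite in direction to Pfkl. Hkdc1, a hexokinase-related gene, was at 386, 432, 377 and 398 CPM in SI and at 26.1, 19.9, 111 and 64.3 CPM in COL (2.84 ± 0.52, adjusted p = 0.00189 by edgeR). Hk1, the housekeeping hexokinase, was at 6.25, 7.43, 8.06 and 5.08 CPM in SI and at 79.4, 77.0, 195 and 161 CPM in COL (−4.26 ± 0.40, adjusted p = 2.6e-05 by edgeR). Hk1 and Hk2 were thus both higher in COL, and Hkdc1 higher in SI.

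Pklr, the liver and red cell pyruvate kinase, was at 385, 239, 287 and 347 CPM in SI and at 18.4, 22.0, 40.2 and 45.0 CPM in COL (3.32 ± 0.38, adjusted p = 9.31e-05 by edgeR). Bpgm, which makes 2,3-bisphosphoglycerate, was also higher in SI at 2.09, and Eno3, the muscle enolase, was higher in COL at −2.03, although COL1 lay at 16.1 CPM within the SI range of 6.59 to 28.2. Hk3, Aldoc, Gapdhs, Pgk2, Pgam2, Eno2, Eno4, Pfkm and Adpgk were not called or not tested.

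Isozyme ratios per kilobase are given for 6 pairs, of which the ratio of Ldhb to Ldha could not be formed in SI3 and SI4, where Ldhb had no counts. Of the 5 tested, 4 passed a two-sided exact permutation test at the smallest p of 0.0286, which becomes 0.0357 after Benjamini-Hochberg adjustment over the 5. This test treats the libraries as unpaired. Each of the 5 ratios had a single direction in 4 of 4 mice, for which exact sign flips within mice give p = 0.125, the smallest that 4 pairs allow. In log2 the ratio of Pfkp to Pfkl was 2.30 ± 0.28 in SI but −1.82 ± 0.58 in COL (SD, n = 4 each). Pfkp was thus the more abundant of the pair in every SI library and Pfkl in every COL library.

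The ratio of Pklr to Pkm was −3.19 ± 0.24 in SI and −5.10 ± 0.34 in COL, and that of Eno3 to Eno1 −6.71 ± 0.96 and −2.88 ± 1.18, with the member predominant in both tissues. Most of the Eno1 sequence is shared with other genes, so the level of the Eno3 to Eno1 ratio is uncertain. The ratio of Pfkm to Pfkl was −2.92 ± 0.80 in SI and −4.47 ± 0.51 in COL, where SI1 at −4.06 and COL1 at −4.13 nearly met. The ratio of Hk1 to Hk2 was −0.62 ± 0.54 in SI and 0.74 ± 0.89 in COL and overlapped (exact permutation p = 0.0571).

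Summed over the isozymes of a step, a description added after the values were seen, the steps did not all follow their member. Phosphofructokinase came to 87.7 ± 23.4 CPM per kilobase in SI and 78.2 ± 41.5 in COL, of which Pfkl made 13.7 to 20.0% in SI and 65.2 to 79.1% in COL. Hk1, Hk2, Hk3 and Hkdc1 came to 117 ± 7.40 in SI, 95.9 to 96.9% of it Hkdc1, and to 62.7 ± 24.3 in COL, where Hkdc1 made 11.9 to 34.0%, Hk1 38.0 to 53.2% and Hk2 up to 49.9%. The sums of phosphofructokinase overlapped between tissues and those of the hexokinases did not.

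Pyruvate kinase came to 1086 ± 151 in SI and 406 ± 230 in COL, with Pkm at 88.8% or more everywhere. For GAPDH the sperm isozyme Gapdhs made at most 0.387% of the sum in any library. Other protein-coding genes that share sequence with Gapdh, such as Gm10358 and Gm3839, were not part of that sum.

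**Figure D4:**
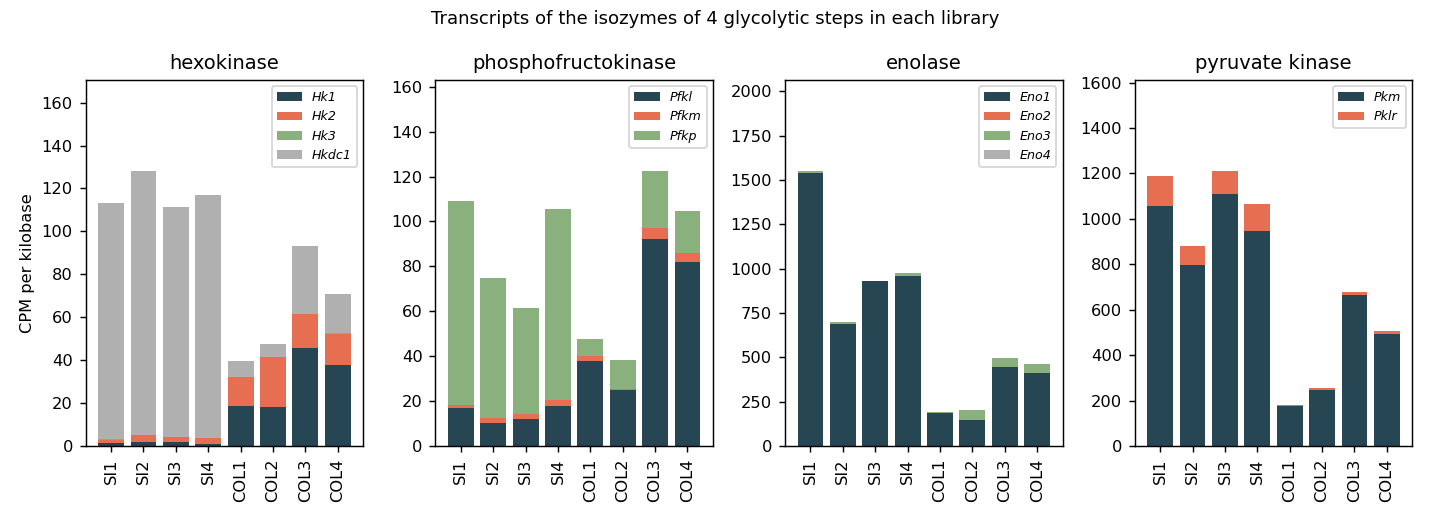
CPM per kilobase of isozymes of 4 steps, stacked, in each library (linear axes that start at 0 and differ by step). In SI Hkdc1 and Pfkp fill most of their bars (Pfkl 13.7 to 20.0%), and in COL Hk1 and Hk2 together and Pfkl do (Pfkl 65.2 to 79.1%), while Eno1 and Pkm fill most of theirs in both.

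Glucose transporters and lactate genes around the pathway were mostly called, 4 of 9 tested higher in SI and 4 in COL. Over all genes 15.5% were called higher in SI and 12.9% in COL. Those higher in SI were Slc5a1 (5.63 in log2 fold change), the sodium-coupled glucose transporter, Slc2a2 (10.6), the basolateral glucose transporter, Slc2a5 (6.10), the fructose transporter, and the lactate exporter Slc16a3 (4.55). Those higher in COL were the ubiquitous glucose transporter Slc2a1 (−4.53), Ldhb (−6.15) and the monocarboxylate transporters Slc16a1 (−0.99) and Slc16a7 (−2.69). Ldha, which reduces pyruvate to lactate, was at 3278, 1800.1, 2361 and 2750.1 CPM in SI and at 505, 489, 1567 and 1214 CPM in COL, apart but just short of the threshold (1.43 ± 0.51, adjusted p = 0.0556 by edgeR).

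Gluconeogenic genes were called in all 8 tested cases, 6 higher in SI and 2 in COL, against 15.5% and 12.9% of all genes. G6pc (9.70 in log2 fold change), which releases free glucose, Fbp1 (5.61) and Fbp2 (2.10), which reverse the phosphofructokinase step, the glucose 6-phosphate carrier Slc37a4 (3.37), Pck1 (2.31) and Pcx (1.60) were higher in SI. Pck2 (−1.82), the mitochondrial form, and G6pc3 (−1.40), the ubiquitous phosphatase, were higher in COL. Of the 5 genes that set fructose 2,6-bisphosphate and flux, Pfkfb3 (5.20) and Pfkfb4 (2.73) were higher in SI and 3 did not pass.

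At the exit to mitochondria 4 of 13 genes were higher in SI and 2 in COL, against 15.5% and 12.9% of all genes. Those higher in SI were the pyruvate dehydrogenase kinases Pdk2 (2.35), Pdk4 (1.91) and Pdk3 (0.84) and the phosphatase Pdp2 (1.73). Those higher in COL were Pdk1 (−1.15) and Pdp1 (−1.76). The pentose phosphate pathway had 1 of 7 in each direction, Rpe (1.09) in SI and Pgls (−1.36) in COL. Among 8 transcription factors known to act on glycolytic genes Mlxipl (2.59), Ppargc1a (1.63), Mlx (1.42) and Arnt (0.72) were higher in SI and Mlxip (−1.07) in COL. Hif1a had a log2 fold change of 0.35 and Myc of −0.86, neither past the test.

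Other transcripts in use as loading controls were compared with Gapdh, 22 in the list besides it. Of these B2m (3.42 in log2 fold change) and Actb (2.20) were higher in SI and Tubb5 (−1.33) in COL, and 19 did not pass, with a list median of −0.05. Over all genes 28.4% passed. Actb was at 15483, 12133, 13734 and 13955 CPM in SI and at 2513, 2774, 3792 and 2984 CPM in COL, with no overlap and an adjusted p of 0.0110 by edgeR. Cdh1, an epithelial adhesion gene, was at 668, 561, 524 and 839 CPM in SI and at 463, 589, 733 and 821 CPM in COL. The ranges overlapped, and the log2 fold change was −0.0075 ± 0.35.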

How the data were processed

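Crypt RNA was sequenced in 8 libraries, 4 SI and 4 COL, on an Illumina instrument. The authors trimmed reads (Trimmomatic 0.36), aligned them to mm10 and counted them per gene (STAR 2.5.2b), and deposited raw counts for 45706 Ensembl genes, 15969428 to 32908060 per library. The labels name mm9 as a further build. The annotation release and use of strand are not given in the sources used here. STAR's gene counter keeps reads with a single location. Identifiers were matched to GENCODE vM21 symbols, which found 45143.

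The main test was edgeR 4.0.16 (quasi-likelihood, R 4.3.3) with TMM and filterByExpr (minimum count 10), tissue as the only term, Benjamini-Hochberg adjustment over 14491 genes and a threshold of 0.05. The same fit with each library's Gapdh count as library size tested change relative to Gapdh. Isozyme ratios were compared by two-sided exact permutation tests over 70 assignments of unpaired libraries. Alternatives were limma-voom (limma 3.58.1), DESeq2 1.42.0, a replicate block, other scalings and filters, and single libraries left out. Scripts were tested on simulated data. The members and gene lists were chosen with earlier results of these data known, and named genes are the members, listed genes past the threshold (at most 8 a list), isozymes in a ratio, Actb, Cdh1 and the 5 genes most like Gapdh.

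Results of 2 listed isozymes are not reported here. Libraries of 1 number came from 1 mouse, per the study's design, so numbers pair the samples. Libraries of 1 tissue differed beyond sampling noise (chi-square per gene 91.7 or more for every pair). Over all genes the deviations of the pairs from their tissue means correlated at −0.24, 0.39, −0.08 and 0.33 in mice 1 to 4.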

Additional observations from a re-analysis of the deposited data

Results flagged for a closer look

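Pgam1 in SI3 stood apart from the other SI libraries, at 71.2 CPM against 60.9 to 62.1 CPM in the other 3, by Dixon's test of the gap against the range. It was the single value singled out among 20 groups of 4 libraries checked, 10 enzymes in 2 tissues, and chance alone does so in about 1 of 20 groups.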

How the results depend on the processing

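The number of the 10 enzymes called, 5 in the main analysis, was 3 with library size alone, 8 with DESeq2, 9 with a term for mitochondrial share (chosen after earlier results were known), and 3 to 6 with single libraries left out, lowest without SI1. Those higher in SI, 2 in the main analysis, were 0 with library size alone, 5 each with DESeq2, limma-voom and limma-voom with the replicate block, 6 with the mitochondrial term, and 1 to 4 with single libraries left out (1 without SI1 and without COL1, 4 without COL3). Over all genes the main analysis called 4116, DESeq2 5121 and limma-voom 4691. The number was 5400 with the mitochondrial term, 5903 with library size alone and 3167 to 4480 with single libraries left out. Gapdh passed the threshold with DESeq2 (1.34), limma-voom (1.50), limma-voom with the replicate block (1.49) and the mitochondrial term (1.45). Its direction held in every alternative run, from 0.54 with library size alone to 1.66 without COL3. The edgeR fit with the replicate block called 5 enzymes, adding Pgam1 and losing Aldoa, and left Gapdh at 1.43 (adjusted p = 0.0747 by edgeR). The number of other enzymes different from Gapdh was 4, and 3 without a filter or with most single libraries left out, the loss being Gpi1.

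Directions turned, none of them past the threshold, for Gpi1 (−0.30) and Pgk1 (−0.11) with library size alone, for Tpi1 relative to Gapdh without SI2 (−0.011 to 0.26 over the 8 single omissions), and for Pkm relative to Gapdh without SI2 (−0.11), SI3 (−0.012) and COL1 (−0.16 to 0.24 over the omissions). Tpi1 and Eno1 lost their calls with library size alone, at 0.72 and 0.99. Aldoa also lost its call with limma-voom (−1.14) and with no filter (−1.47). With the replicate block as exact sign flips within mice, an alternative chosen after seeing the data, 0 isozyme ratios could pass, since 0.125 is the smallest p of 4 pairs. The ratio of Pfkm to Pfkl missed the threshold without any 1 COL library (exact permutation p = 0.0571). Hk2 and Pfkl kept direction and call in every alternative run. The causes were not tested. Depth was 15969428 counts or more in each library, and limits such genes as Ldhb, which had no counts in SI3 and SI4.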
